A study of Homo sapiens with 6 samples.

Results

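AL391807.1, AC136475.7 and SCARA5 were 3 genes, of 56794 in the table, that were near silent in parental HEK293 cells and had RNA in the libraries labelled mutant for CASP8AP2. AL391807.1 and AC136475.7 are long non-coding RNAs, and SCARA5 encodes a scavenger receptor. They were chosen by their measured levels: a gene was kept when its abundance, summed over transcripts, was at least 2 in the mutant group and the parental sum was at most 0.1 times the mutant sum. Of 12480 genes at or above the mutant minimum, 8 met both limits, which is 0.0641%. The rule then left out 5 by name, namely NEFL, OR1C1, TRBC2, HIST2H2BD and CCL20, and 3 remained. Because the mutant and parental levels selected these genes, their levels, ratios and p-values are given as a description and test nothing. With the groups exchanged, 45 of 12402 genes met the same limits (0.363%), and 30 of them were left after the same names were dropped.

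HEK293 is a human embryonic kidney line that is widely used to make recombinant protein. Parental cells expressed luciferase, and the cells called mutant here expressed luciferase and are labelled as deleted for CASP8AP2 by CRISPR, both grown in DMEM with fetal bovine serum. Each group had 3 libraries of total RNA, and the title of the series speaks of protein expression and of G0/G1 arrest. The sources used here do not say whether the mutant cells were 1 clone or whether each library came from its own culture. A p-value from the deposited table thus covers no more than the scatter among these 6 libraries, which may be technical.

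Abundance is the authors' length-scaled group mean with their added 1 taken off. The values analysed were group means, so they carry no SD, and each log2 ratio sets mutant over parental with 1 added to either value. The mutant libraries together were 2.38 times as deep as the parental ones, and the deepest of the 6 libraries was 6.26 times as deep as the shallowest. CASP8AP2 itself stood at 15.7 in mutant and 15.9 in parental, so its RNA level does not check the labels. Kidney markers summed to 44.6 and 40.4, and 8 of the 18 were measured at 1 or more in either group, 3 higher and 5 lower in mutant. GATA3, at 20.7 in mutant and 17.5 in parental, and CITED1, at 11.9 and 11.4, were the highest. Of the markers of the tubule, AQP2, UMOD and SLC12A3 were at 0 in both groups. LRP2, at 1.80 and 2.04, and AQP1, at 0.891 and 1.23, had RNA in both. The median log2 ratio of all genes measured at 1 or more in either group was -0.01, and 49.4% of them were higher in mutant.

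Long non-coding RNAs are often transcribed from the same start region as a protein-coding gene, in the opposite direction, or from within its introns. ADGRB3, the neighbour of AL391807.1, encodes an adhesion G-protein-coupled receptor of neurons that binds secreted C1q-like proteins. IFITM1, IFITM2 and IFITM3, the neighbours of AC136475.7, encode small membrane proteins that are induced by interferon and hinder the entry of enveloped viruses. SCARA5 encodes a class A scavenger receptor that takes up ferritin, the protein shell in which cells store iron.

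The sequences below show where the non-coding members lie in relation to those coding genes. The 250 bases before the RefSeq start of ADGRB3 lie at chr6:68635032-68635281 on the plus strand of GRCh38.p14, and the capitals mark the first exon of AL391807.1-201, 96 bases at chr6:68635066-68635161 that are transcribed from the opposite strand.

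ADGRB3 promoter: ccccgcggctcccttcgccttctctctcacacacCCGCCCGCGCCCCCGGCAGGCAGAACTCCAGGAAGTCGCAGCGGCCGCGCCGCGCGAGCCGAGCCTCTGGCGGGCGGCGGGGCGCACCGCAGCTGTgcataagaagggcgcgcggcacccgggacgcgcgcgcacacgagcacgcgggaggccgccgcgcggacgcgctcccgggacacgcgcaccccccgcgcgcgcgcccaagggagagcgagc

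This window was 79.2% G and C and held 46 CG pairs, against medians of 58% and 11 over 34943 RefSeq promoters of the same length, 0.409% of which held as many. The start of AL391807.1, which is that of isoform AL391807.1-201, lay 121 bases from the RefSeq start of ADGRB3 and 206 bases from its GENCODE start. That isoform held 5.57% of the mutant abundance of AL391807.1. AL391807.1-202, with 55.7%, starts 405 bases from the GENCODE start of ADGRB3, and AL391807.1-203, with 38.7%, starts at chr6:68634324. Both of these starts lie outside the printed window. The genes point away from each other.

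The other sequences show a stretch that AC136475.7 shares with genes of the IFITM family. The capitals mark GAAA, any 2 bases and GAAA again, the core of the interferon-stimulated response element, which was searched on both strands. The AC136475.7 stretch lies at chr11:326124-326153 on the minus strand and was read from the GENCODE transcript. RefSeq gave the others, at chr11:313990-314019 on the plus strand for IFITM1 and at chr11:320893-320922 on the minus strand for IFITM3, all of GRCh38.

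AC136475.7: caaacagcagGAAACAGAAActtctaagaa
IFITM1 promoter: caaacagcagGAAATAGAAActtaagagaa
IFITM3 promoter: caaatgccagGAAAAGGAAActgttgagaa

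The letters matched once in the first 250 bases of AC136475.7, at bases 152 to 161 of the transcript. They matched once in the promoter window of IFITM1, at 2 places in that of IFITM3 and nowhere in that of IFITM5. No window under the names IFITM2 or IFITM10 was among the promoters used, so neither gene was searched or aligned. Of all RefSeq promoters, 3.02% held at least 1 match. The first 250 bases of AC136475.7 were also aligned with each of the 34943 promoters, and IFITM1 ranked 1 with a score of 107 and IFITM3 ranked 2 with 98, while the next had 51. The alignment with IFITM1 ran over bases 17 to 172 of AC136475.7, with 114 identical bases of 153 aligned and 15 gap bases, or 67.9% identity. These are matches of letters, and no binding was measured. The printed stretches of IFITM1 and IFITM3 lie inside the GENCODE extents of those genes, chr11:313506-315272 and chr11:319669-327537. That of IFITM3 lies within an intron of IFITM3-204.

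AL391807.1 (ENSG00000230910.3) is a processed transcript of 3 isoforms at chr6:68628117-68635161 on the minus strand. Its abundance was 5.50 in mutant and 0.0883 in parental, a ratio of 62.3 and a log2 ratio of 2.58. From the size of 1 read in each library, the mutant value came to about 525 reads and the parental value to about 2.47 reads, where 221 parental reads would have been seen at the mutant level. The counting error of so few parental reads allows ratios from 17.6 to 636 at 95% confidence. That interval covers counting of the parental reads only, and not the spread between mutant libraries. In RNA from whole cultures, fewer cells with a transcript and less of it per cell cannot be told apart.

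**Figure D1:**
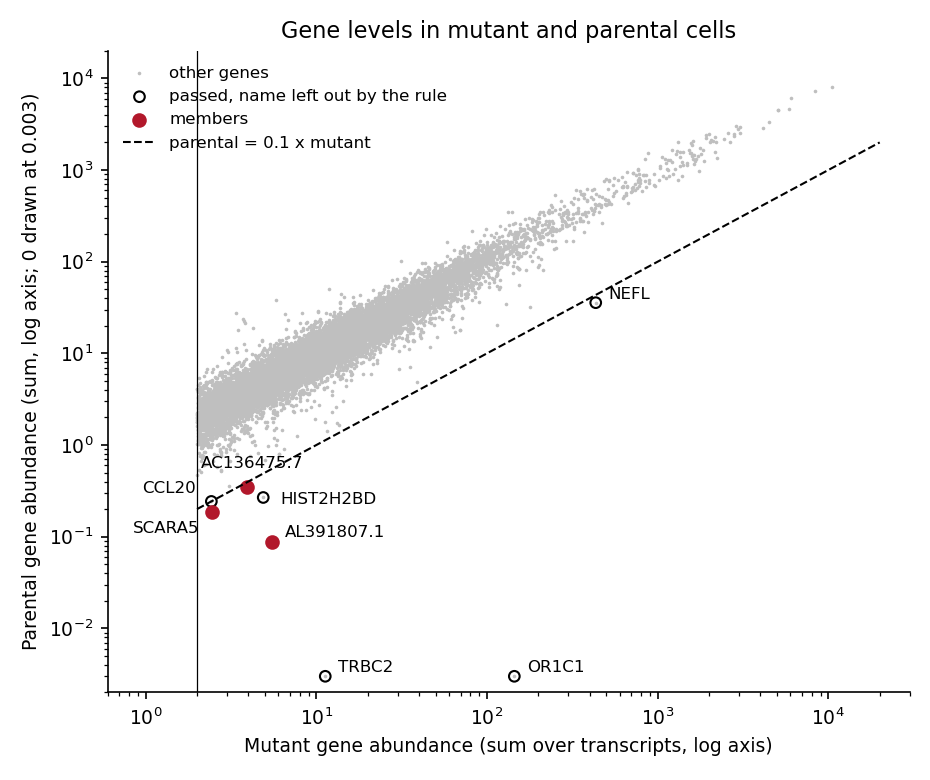
Gene abundance in the mutant group (horizontal, log axis) and the parental group (vertical, log axis), 1 point a gene with a mutant sum of at least 2. The 3 filled red points are AL391807.1, AC136475.7 and SCARA5, the 5 open circles are the genes left out by name, the vertical line is the minimum of 2, and the dashed line is a parental level of 0.1 times the mutant one.

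All 3 isoforms of AL391807.1 were higher in mutant. AL391807.1-202, the leading isoform with 55.7% of the mutant abundance, stood at 3.07 in mutant and 0.0468 in parental, and its p-value in the authors' deposited table was 0.00712. AL391807.1-203, whose ends are those of the RefSeq gene ADGRB3-DT, stood at 2.13 and 0.0415, with a deposited p-value of 0.0143. AL391807.1-201, the long isoform that begins in the window printed above, was at 0.307 in mutant and listed at 0 in parental, at least 24.2-fold higher over a floor of 3 parental reads for the group, and its deposited p-value was 0.0130. Adjusted over all transcripts by the authors, these p-values became 0.530, 0.629 and 0.611 in the authors' deposited table.

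The deposited p-values also limit what single libraries can have held, provided that an equal-variance comparison of log or untransformed values made them. With 3 libraries against 3, a transcript with reads in 1 library only has a p-value of 0.374, and a p-value under 0.116 requires reads in all 3 mutant libraries. For AL391807.1-202 the lowest mutant library was at 1.24 or more and the highest parental library at 0.140 or less, so the groups did not overlap. AL391807.1-203 gave bounds of 0.740 and 0.125. On these bounds, both leading isoforms had RNA in every mutant library and little in any parental one. The same contrast chose the 3 genes, and the share of all transcripts with separate bounds was not computed. Nothing is read from such a separation here or below.

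**Figure D2:**
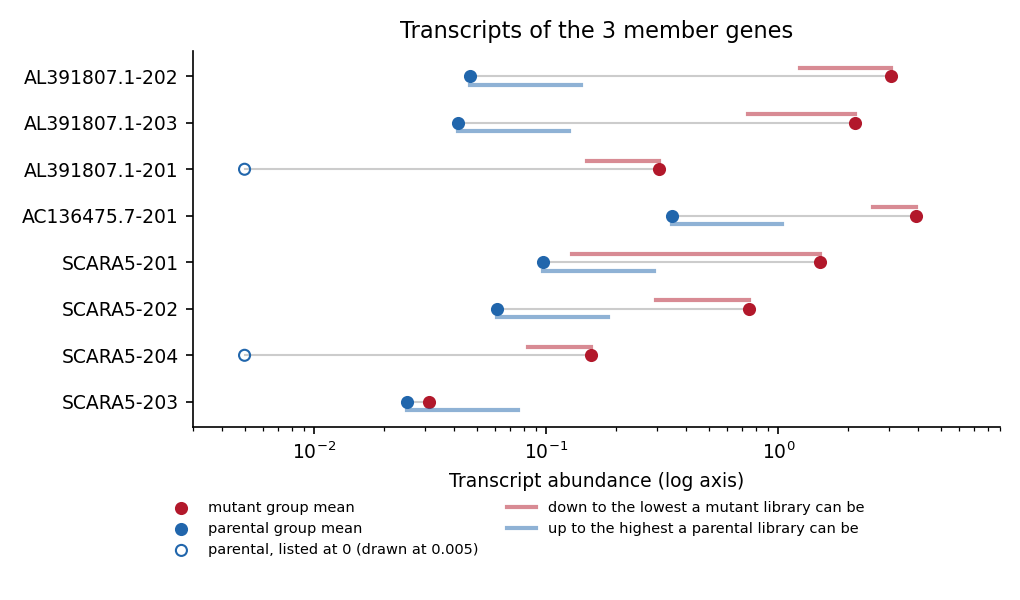
Abundance of each transcript of AL391807.1, AC136475.7 and SCARA5 (log axis), with points for the group means. Red bars run from the mutant mean down to the lowest value a mutant library can have had given the deposited p-value, and blue bars from the parental mean up to the highest value a parental library can have had, 3 times that mean; the bars overlap for SCARA5-201, and SCARA5-203 has no red bar.

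AC136475.7 (ENSG00000270030.1) is a lincRNA of 1 exon and 592 bases at chr11:325703-326294 on the minus strand. It stood at 3.93 in mutant and 0.347 in parental, a ratio of 11.3 and a log2 ratio of 1.87. About 247 mutant reads and 9.15 parental reads lay behind these means, where 104 parental reads would match the mutant level, and counting of the parental reads allows ratios from 5.27 to 36.9. Under the condition given above, the lowest mutant library was at 2.56 or more and the highest parental library at 1.04 or less. On these bounds, from the contrast that chose AC136475.7, the groups did not overlap. Its p-value in the authors' deposited table was 0.000462 and the adjusted p-value 0.249.

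AC136475.7 lies within an intron of 6478 bases of IFITM3-204, on the same strand, and 4653 bases before the start of IFITM3-201. Reads from unspliced IFITM3-204 would fall on the same bases, and their part in the level was not tested. IFITM3-204 itself, counted over its exons, was at 0.219 in mutant and 2.16e-06 in parental, the latter far under 1 read, and so below the abundance of AC136475.7 in both groups. The mutant value of IFITM3-204 came to about 16.5 reads, and its deposited p-value was 0.218 (adjusted 0.703). AC136475.7 holds AATAAA, the usual polyadenylation signal, 16 bases before its end. Of its 519 distinct runs of 31 bases, 17 (3.28%) also occur in transcripts of other genes, and 0 of them occur in an IFITM transcript. Only spliced transcripts were searched, so these counts do not bear on reads from unspliced IFITM3-204.

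SCARA5 (ENSG00000168079.16), on the minus strand of chromosome 8 between 27869882 and 27992727, was the protein-coding gene among the 3. Its abundance was 2.45 in mutant and 0.184 in parental, a ratio of 13.3 and a log2 ratio of 1.54. The reads came to about 914 in mutant and 26.6 in parental, where 384 would match the mutant level, and the ratios that parental counting allows run from 7.66 to 27.3. SCARA5-201, the leading isoform, was at 1.51 and 0.0970, with a deposited p-value of 0.0774 and an adjusted p-value of 0.703 in the authors' deposited table. Its lowest mutant library was at 0.129 or more and its highest parental library at 0.291 or less, so an overlap of the groups is possible.

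The other isoforms of SCARA5 were less abundant. SCARA5-202 was at 0.748 in mutant and 0.0615 in parental with a deposited p-value of 0.0180. Its groups were apart on bounds of 0.295 and 0.185, under the same condition. SCARA5-204 was at 0.156 and listed at 0 in parental, at least 4.51-fold higher over the floor of 3 reads, but 6.95% of its runs of 31 bases also occur in AC069113.2 on the opposite strand, which makes its value uncertain where counting ignored strand. SCARA5-203 was at 0.0311 and 0.0251, a pair of values from a few reads.

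The leading transcript was higher at a deposited p-value under 0.05 in 2 of the 3 genes, and some transcript was in all 3. Over 14856 genes measured at 1 or more in either group, 852 leading transcripts were higher in mutant at that threshold (5.74%), but the same contrast chose the 3 genes and nothing is read from their count. No transcript of the 3 genes had an adjusted p-value under 0.05 in the authors' deposited table, where 31 of 140552 transcripts had one (0.0221%). Among the genes with a mutant sum of at least 2, 87.9% were protein coding and the median number of transcripts was 7.

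Near the limits of the rule, AC136475.7 had a parental level of 0.0882 times the mutant one and SCARA5 of 0.0750 times. SP140L, at 3.06 and 0.356 (0.116 times), and AL035446.1, at 11.6 and 1.42 (0.122 times), were nearest outside the ratio. SCARA5 with 2.45 and AC136475.7 with 3.93 were nearest inside the minimum. CDH10, a cadherin, at 1.96 and 0.0228, and the lincRNA AP003062.1, at 1.42 and 0.116, were nearest outside it. Of the genes left out by name, CCL20 was nearest to the ratio limit, at 2.43 and 0.242. The neurofilament gene NEFL was at 434 and 35.7, and the olfactory receptor gene OR1C1 at 145 and the T cell receptor constant gene TRBC2 at 11.3 were both listed at 0 in parental.

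ADGRB3, the receptor gene that starts beside AL391807.1, was at 1.05 in mutant and 0.0642 in parental, a ratio of 16.4. It met the ratio limit and fell below the minimum of 2. ADGRB3-202, which holds most of that level, was at 0.822 and 0.0125 (deposited p-value 0.0484, adjusted 0.703). ADGRB3-201 was at 0.190 and 0.0225 (deposited p-value 0.168), and ADGRB3-203 was at 0.0383 and 0.0292 (deposited p-value 0.836). The genes of the pair were thus both near 0 in parental, and in mutant the non-coding RNA was the more abundant per length. Of the related receptors, ADGRB1 was at 6.18 in mutant and 9.47 in parental and ADGRB2 at 13.9 and 7.54, so neither was near silent. The C1q-like ligand genes C1QL1, at 6.50 and 5.47, and C1QL4, at 2.38 and 2.01, had RNA in both groups, while C1QL2, at 0.0321 and 0.02002, and C1QL3, at 0.0852 and 0.00934, were near 0 in both. Within 1500 kb of AL391807.1 the other measured gene, LMBRD1, was at 12.5 and 11.8.

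Around AC136475.7 the neighbours had RNA in both groups and more of it in mutant. Within 100 kb, 12 other genes were measured at 1 or more in either group, and 12 of them had a log2 ratio above 0, from 0.07 to 1.64, with a median of 0.73 against -0.01 for all genes. These genes are rich in G and C (median 60.6%), and after the running median over GC content was taken off, 12 of 12 were still above 0, with a median of 0.56. The leading transcript had a deposited p-value under 0.05 in 6 of the 12, each higher in mutant, beside the 5.74% of all measured genes given above, and none had an adjusted p-value under 0.05 in the authors' deposited table.

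IFITM1 was at 14.9 in mutant and 6.55 in parental, and IFITM1-202, its leading transcript, had a deposited p-value of 0.000728. IFITM3 was at 9.99 and 4.38, and IFITM3-201 at 8.61 and 2.61 had a deposited p-value of 0.0178. IFITM2 was at 14.1 and 10.8. Their coding parts are much alike and the IFITM2 gene model reaches the end of IFITM1, so how reads were split among them is uncertain. IFITM5, which lies in the same cluster and is known from bone, was at 0.0531 and 0.0240, and IFITM10, farther away on the chromosome, at 0.829 and 0.879. The family members beside AC136475.7 had ratios of 1.30 to 2.28. The rule chose AC136475.7 for its ratio, which was 11.3, so nothing is read from that being higher.

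The antisense RNA AC136475.1, whose isoform AC136475.1-202 ends 72 bases from AC136475.7 on the opposite strand, was at 2.75 and 0.767. PGGHG, which encodes a glucosidase of collagen-linked sugars, was at 63.2 and 19.6, the highest ratio of the 12 on the log2 scale. SIGIRR, an inhibitory receptor of interleukin-1 and Toll-like receptor signalling, was at 24.7 and 12.2, and the proteasome gene PSMD13, at the far end, at 66.6 and 63.3.

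**Figure D3:**
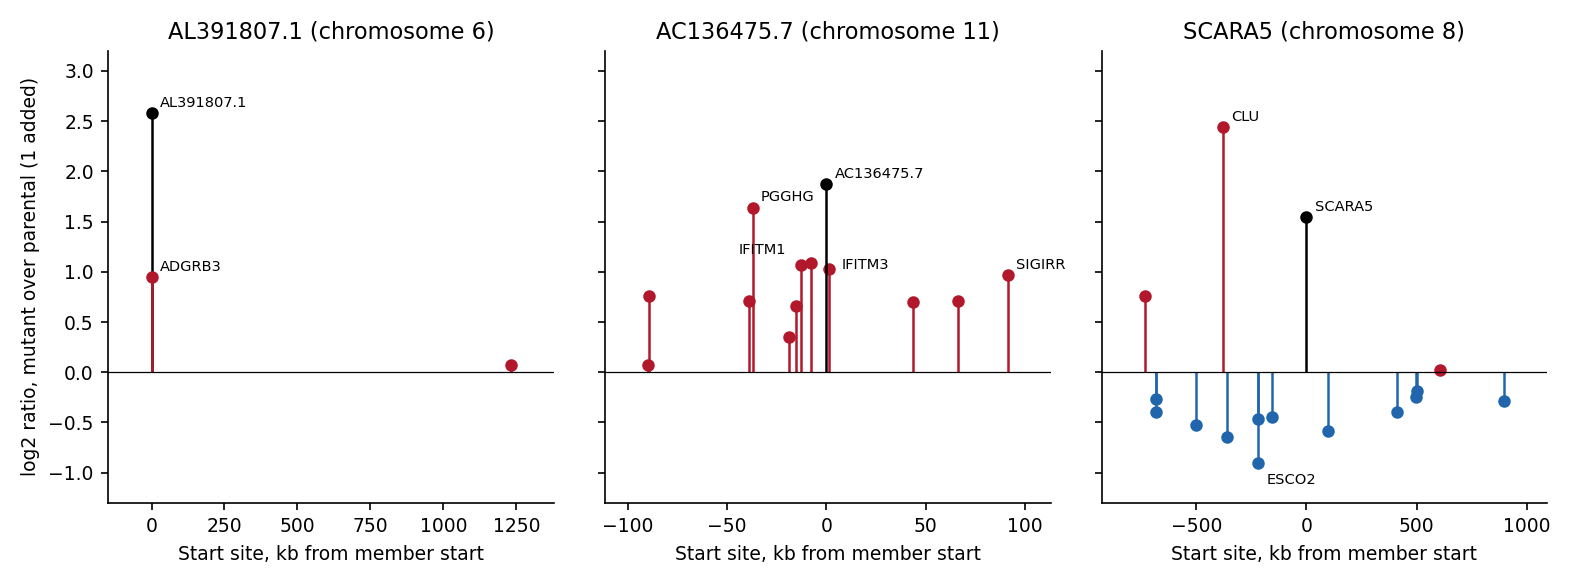
Log2 ratio of mutant over parental (1 added to both) for each measured gene around AL391807.1, AC136475.7 and SCARA5, plotted by the distance of its start site in kb along the chromosome from that of the member (black); red is higher and blue lower in mutant. All 12 neighbours of AC136475.7 lie above 0, and 12 of the 15 around SCARA5 lie below it.

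Around SCARA5 most genes went the other way. Within 800 kb, 15 other genes were measured, of which 3 were higher and 12 lower in mutant; the median log2 ratio was -0.39, or -0.29 after the GC correction. The leading transcript had a deposited p-value under 0.05 in 5 of the lower genes, CCDC25, ESCO2, PBK, FBXO16 and INTS9, and in 1 of the higher genes, CLU, and none had an adjusted p-value under 0.05 in the authors' deposited table. Over all 14856 measured genes, 7.83% had a leading transcript that was lower at that threshold. CLU, which encodes the secreted chaperone clusterin, was at 177 in mutant and 31.9 in parental, a log2 ratio of 2.44, and CLU-202 had a deposited p-value of 0.000321. ESCO2, an acetyltransferase of cohesin, was at 2.93 and 6.34, and PBK, a mitotic kinase, at 26.6 and 36.6. SCARA3, a scavenger receptor gene of the same class that lies in this window, was at 4.25 and 7.20.

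The other class A scavenger receptor genes were lower in mutant or at 0. COLEC12 was at 6.90 in mutant and 11.5 in parental, and MSR1 and MARCO, which are known from macrophages, were listed at 0 in both groups. Of 12 genes of ferritin and iron handling, 9 were measured, 3 of them higher in mutant and 6 lower (median log2 ratio -0.21), and none had a leading transcript at a deposited p-value under 0.05. FTH1 and FTL, the ferritin subunits, were at 573 against 587 and at 325 against 499.9, and the transferrin receptor gene TFRC was at 13.8 against 22.1.

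**Figure D4:**
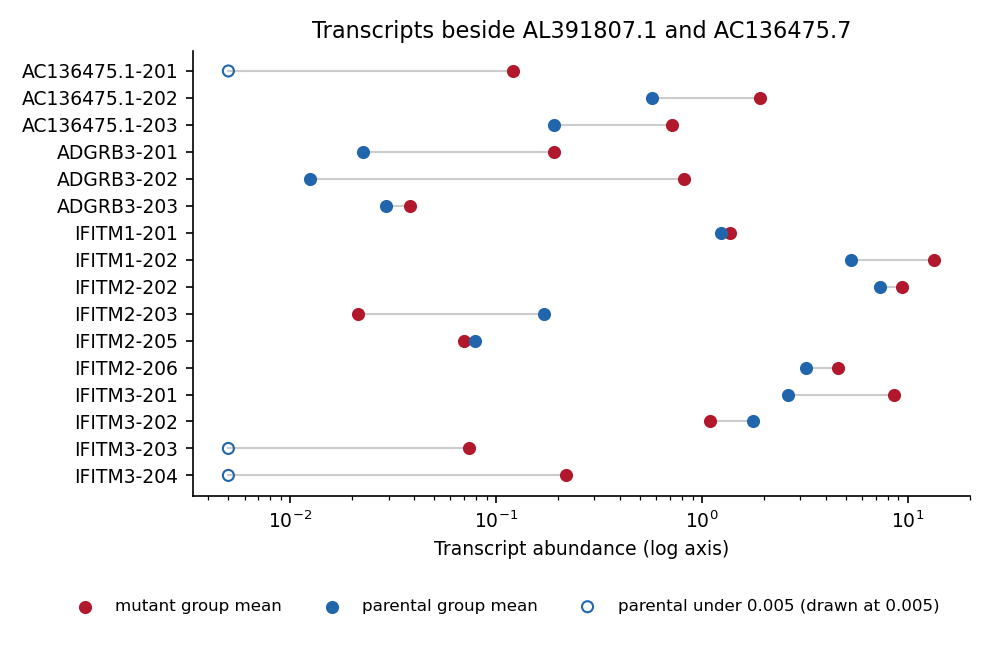
Abundance of the transcripts of ADGRB3, the IFITM genes and AC136475.1 in mutant (red) and parental (blue) group means on a log axis, with open circles where the parental mean was under 0.005. ADGRB3-202 and IFITM3-204 show wide gaps, but IFITM3-204 had only about 16.5 mutant reads and a deposited p-value of 0.218. IFITM1-202 and IFITM3-201 were well above 0 in both groups.

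Over the nearest measured gene on each side of the 3 members, 4 of 6 were higher in mutant, with a median log2 ratio of 0.48. The same neighbours of 12395 genes with a mutant sum of at least 2 had a median of 0.00156, and 50.1% were higher. The 6 were ADH5P4 and ADGRB3 for AL391807.1, IFITM3 and B4GALNT4 for AC136475.7, and PBK and ELP3 for SCARA5. ADH5P4 lies outside the 1500 kb window around AL391807.1, and the gene model of IFITM3 overlaps AC136475.7. None of the 3 members was on any of 20 lists of cell type markers, gene families and silencing factors. The 11 lists with at least 5 measured genes had medians from -0.46 to 0.28. Fibroblast and mesenchymal markers, the cell type in which SCARA5 is known to be expressed, had 10 of 19 genes measured. Of these, 3 were higher and 7 lower in mutant, with 1 of each at a deposited p-value under 0.05. The 19 summed to 129.3 in mutant and 129.8 in parental, with changes in both directions. COL6A1, at 45.9 and 21.9, and COL1A1, at 5.82 and 2.17, were higher in mutant. FN1, at 23.2 and 43.3, and SPARC, at 17.3 and 28.8, were lower, and COL1A2 was at 0 in both groups. Neuronal markers, the cell type of ADGRB3, had 12 measured genes, 3 higher and 9 lower, and summed to 456.7 in mutant and 80.5 in parental. NEFL carried that sum, at 434 and 35.7, while the other intermediate filament genes NEFM, at 0.0690 and 8.63, and INA, listed at 0 and at 6.11, were lower in mutant. The DNA methylation and Polycomb genes, which keep many genes silent, had 40 measured members, 22 higher and 18 lower (median log2 ratio 0.06), and 1 leading transcript was higher and 3 lower at a deposited p-value under 0.05.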

How the data were processed

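RNA-seq of 3 parental and 3 mutant HEK293 libraries was analysed from 1 deposited table of group means for 203376 transcripts. Per the labels, libraries were made from total RNA by random priming with a NEBNext Ultra kit. Per the submitters' processing notes, the authors used bcl2fastq, STAR, Partek and hg38; versions, the transcript annotation, filters and the use of strand in counting are not given in the sources used here. As named per the file headers, the least-squares mean of each group is a score made by the authors, and the values show it to be a mean of abundance plus 1. The deposited signal called total counts is not a whole-number count and was not used as depth. The deposited ratio, fold change, p-value and adjusted p-value were the authors' own and were held as scores.

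From these values 1 was subtracted, transcripts were summed per gene, and log2 ratios were taken after adding 1. Genes at 1 or more in either group counted as measured. The product of abundance and length that 1 read gives was read for each library from its recurring values, which gives relative depth and estimated reads. An equal-variance comparison of log values gave the deposited p-value within 0.002 for 88.9% of 914 transcripts that could be turned into whole reads, and untransformed values for 46.9%. Bounds on single libraries took the lower of both scales and hold only where 1 of these comparisons made the deposited p-value. Intervals cover counting error only.

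Positions came from GENCODE release 29, in which 99.1% of transcripts were found, and promoters from RefSeq (GRCh38.p14). The GC trend was a running median over 40 bins, averaged over 5. Python 3.11.15, pandas 2.3.3, scipy 1.17.1 and Biopython 1.88 were used.

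Members, lists, families and windows were chosen with earlier results of these data known, and the families and windows after the members were seen. The naming rule takes the members with the highest mutant sum and smallest deposited p-values, and 2 genes on each side of each limit of the rule; with 3 members it names all of them. Neighbours, families, the alignment and the motif were chosen after values were seen. The plan named a fit of single libraries, which was not run because the values analysed are group means.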

Additional observations from a re-analysis of the deposited data

How the results depend on the processing

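The number of genes that met the rule was 3. It was 8 with a minimum mutant sum of 1, 1 with a minimum of 5, 1 with a parental level of at most 0.05 times the mutant one, 19 with at most 0.2 times, and 8 with no names dropped. With the most abundant transcript in place of the sum it was also 3, 2 of them the same genes (PMEPA1 took the place of SCARA5). The median log2 ratio of the nearest neighbours, 0.48, was 0.19 over the nearest 3 genes on each side, 0.53 with 0.1 added and 0.38 with the GC trend taken off. The members' own log2 ratios kept their direction with the GC trend taken off and with 0.1 added in place of 1, where they became 4.89 for AL391807.1 and 3.17 for both AC136475.7 and SCARA5, so these sizes depend on the value added. For single members the GC correction, the added 0.1 and the untransformed bounds were chosen after seeing the data. No paired analysis was possible because the values analysed are group means, and leaving out single replicates was not run for the same reason. Depth limits the parental side: about 2 or 3 reads stand behind AL391807.1 there, and the shares of single libraries are known as bounds only.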

Other observations

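With the minimum lowered to 1, the rule added CDH10, AP003062.1, LRRTM4, TRBC1 and ADGRB3. LRRTM4, which encodes a protein of the postsynaptic membrane, was at 1.07 in mutant and 0.0920 in parental, and LRRTM4-201 had an adjusted p-value of 0.0968 in the authors' deposited table. TRBC1, a T cell receptor constant gene next to TRBC2, was at 1.07 and 0.0306. The other 20 lymphocyte markers lay between 0 and 0.518 in mutant and between 0 and 0.395 in parental. CD247 was the highest of them in mutant, at 0.518 against 0.392, and ZAP70 the highest in parental, at 0.327 against 0.395. PTPRCAP, at 0.291 in mutant and 0.0227 in parental, was higher in mutant as TRBC1 and TRBC2 were. About 1.04 parental reads lay behind TRBC1 and 1.31 behind PTPRCAP. The p-value of PTPRCAP was 0.00341 and its adjusted p-value 0.452 in the authors' deposited table. TRAC, another T cell receptor constant gene, went the other way, at 0.0488 in mutant and 0.132 in parental, from about 5.05 and 5.74 reads. Its p-value was 0.0242 and its adjusted p-value 0.703 in the authors' deposited table. CD79A, at 0.153 and 0.336, and LCK, at 0.0395 and 0.109, were also lower in mutant, so the list had no common direction. CD3D, CD3E, CD2, CD5 and MS4A1 were listed at 0 in both groups.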
